A study of Mus musculus with 32 samples.

Results

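Hearts of C57BL/6 mice were compared 42 days after the end of repeated social defeat. The 4 stressed mice had spent 6 hours a day on 10 consecutive days in a mesh box within an aggressor's cage, with repeated direct attacks, and had then rested for 42 days. The 4 control mice went through the same 10 days in mesh boxes in a cage that held no aggressor, with the same 42 days of rest. These 8 mice form the condition called T10R42 (T for days of exposure, R for days of rest), were chosen by their titles, and are 8 of the 32 mice of the series, each with its own array. The other conditions, T10R1, T5R10 and T5R1, each hold 4 stressed and 4 control mice of their own, so no control is shared between conditions. The age and sex of the mice are not given in the sources used here, and no allele or agent other than the exposure separates the arms. Whole heart tissue was used, so fewer cells of a type and less RNA per cell cannot be told apart.

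Social defeat is a model of traumatic stress in which a subordinate mouse is repeatedly confronted by an aggressive one. The heart receives such stress through sympathetic nerves and circulating glucocorticoids, and a strained heart typically lays down collagen, returns to fetal genes such as that of the slow myosin heavy chain, and draws in immune cells. A long rest shows which of these changes are still measurable after the exposure has ended.

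All 8 arrays shared a slide. Controls occupied its first columns (1 and 2) and stressed mice columns 3 and 4, so array column and stress cannot be told apart, whereas both slide rows held both arms. From 31892 to 38527 probes were well above background per array, and the 75th percentile signal ran from 237.2 to 366.3. Pairs of arrays correlated at 0.985 to 0.994 within an arm and at 0.985 to 0.992 between arms. The labelled tissue held: all 8 heart muscle markers (among them Myh6, Tnnt2 and Ryr2) were above background in all 8 mice, with a mean of 8.93 to 9.03 on the log2 scale relative to the array's 75th percentile, which is the scale of every level below. The neutrophil marker Ngp, the natural killer cell marker Ncr1, the thymocyte markers Rag1 and Ptcra and the skeletal muscle markers Myh2 and Mylpf were above background in none of the 8. Other markers of these types were above background in all 8 mice: 3 of 5 for neutrophils, 4 of 5 for T and NK cells and 1 of 5 for thymocytes. For skeletal muscle it was 0 of 5.

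A pair of mice stood apart in lists of other tissues. The mean of 5 lung markers, relative to the control mean, was 3.00 in control mouse 1 and 2.40 in stressed mouse 4, against -1.51 to -0.56 in the other 6. The mean of 16 fat cell markers was 1.57 in control mouse 1, 1.41 in stressed mouse 4 and 0.72 in stressed mouse 3, and from -1.39 to -0.07 in the rest. Each arm held 1 mouse with the high lung values, and neither list held a called gene. Without this pair, 4 of the 40 called genes named below passed, and values without it stand beside the comparison with 1 day of rest.

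**Figure D1:**
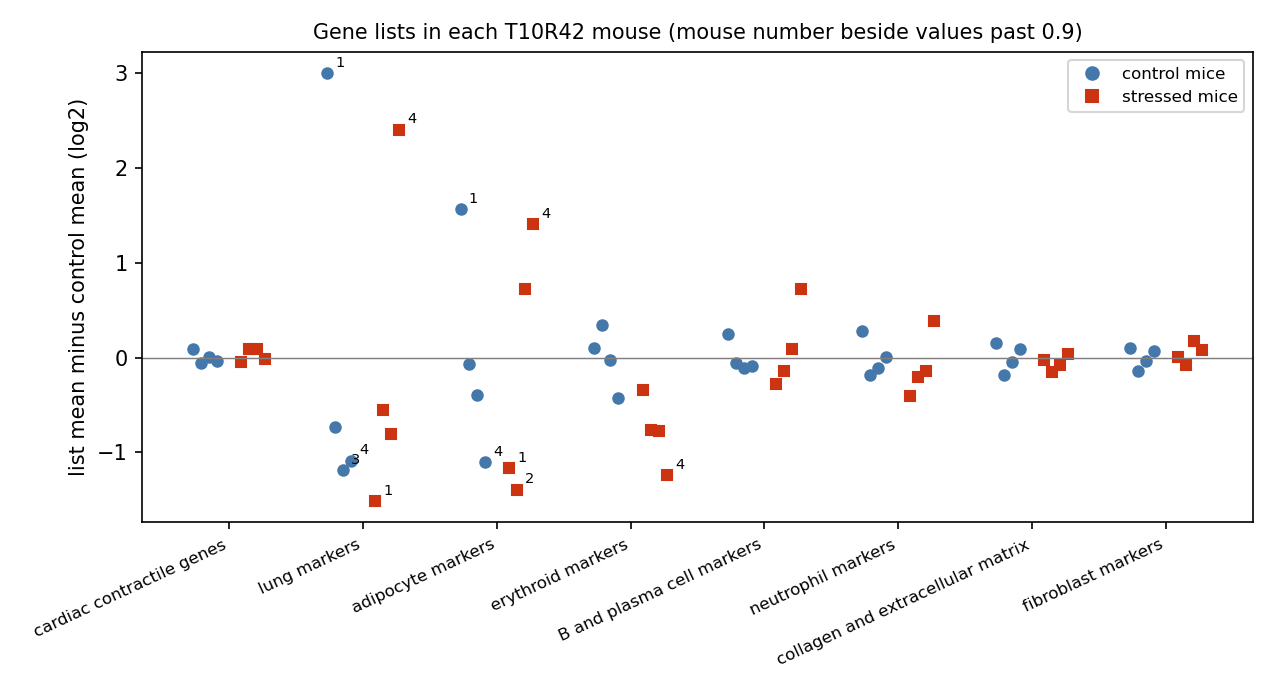
Mean level of the genes of 8 lists in each T10R42 mouse, relative to the control mean (y axis, log2), with controls as circles and stressed mice as squares, ordered by mouse number from left to right. Control mouse 1 and stressed mouse 4 sit far above the other mice for lung markers (3.00 and 2.40), while contractile genes and collagens stay within 0.2 of the control mean in every mouse.

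In stressed hearts 79 genes rose (0.287% of the 27532 tested) and 168 fell (0.61%). The rises were small and 58 of them (73.4%, against 57.7% of tested genes) lay in RefSeq mRNAs: their median size was 0.39 on the log2 scale, and only 6 reached 2-fold. The falls were larger, with a median of 0.63 and 17 of at least 2-fold. They held 54 long intergenic noncoding RNAs (lincRNAs), 54 RefSeq mRNAs (32.1%) and 7 of the 374 tested olfactory receptor genes. The arms did not overlap for 78 of the 79 genes that rose and for 154 of the 168 that fell. Non-overlap was seen for 4.15% (higher) and 7.3% (lower) of all tested genes. The calls were made on these same values, so the separation largely follows from that choice. At an unadjusted p below 0.05 there were 5166 genes, 18.8% of those tested (7.13% higher and 11.6% lower).

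The number of calls depended on the setting. With the 8 arrays alone, where 4 against 4 mice leave fewer degrees of freedom, no gene was called by limma, although 5141 had an unadjusted p below 0.05. Leaving out single mice gave from 34 calls (without stressed mouse 3) to 1444 (without stressed mouse 2), and 11 remained without both control mouse 1 and stressed mouse 4, of which 10 were among the 247. Falls were 68.0% of the calls on the scale used here and 53.2% after another background correction (normexp). They were 48.0% after quantile normalisation and 26.9% when each array's median was the reference. Normexp here adds a constant of 50 to every corrected signal, which by itself shrinks the changes of dim probes. Its smaller values for dim genes below were thus largely fixed in advance and cannot tell whether those changes are real. The 40 called genes named below kept their call in 3 (Selp) to 22 (Siah3) of the 25 or 26 alternatives run on each, with a median of 12.5. A830029E22Rik also kept its call in 22, but its probe entered the test only through the stressed T10R42 mice, so this is no support. None changed sign with another background correction or scaling. Every alternative reuses mice on which the genes were chosen, so the direction is largely fixed by that choice.

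Among genes that control transcription, Ahr, the ligand-activated receptor for aromatic hydrocarbons, read -0.32, -0.28, -0.68 and -0.38 in control mice 1 to 4 and -0.03, 0.45, -0.04 and 0.30 in stressed mice 1 to 4. Every stressed mouse lay above every control, by 1.5-fold on average (log2 change 0.58, SE 0.14, adjusted p = 0.0473). Rbl2, a pocket protein that represses cell cycle genes, read -0.73, -0.82, -0.79 and -0.82 in controls and 0.13, -0.40, -0.34 and -0.42 in stressed mice. It rose 1.44-fold (adjusted p = 0.0333), with stressed mouse 1 well above the other three stressed animals. Ccnt2, a cyclin partner of the kinase that releases paused RNA polymerase, read -3.42, -3.16, -3.42 and -3.38 in controls and -2.69, -2.86, -2.66 and -2.70 in stressed mice, a rise of 1.53-fold (adjusted p = 0.0457). With normexp the change of Ccnt2 was 0.19 (adjusted p = 0.26). The zinc finger genes Zfp992 and Zfp936 rose 1.68-fold and 1.47-fold, and Tceal1, of a family related to transcription elongation factors, 1.44-fold. The other kept probe of Zfp936 went the opposite way (-0.45 on the log2 scale).

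Enzymes among the named rises changed by less than 1.5-fold. Clpx encodes the ATPase subunit of a mitochondrial protease. Its level was 2.50, 2.72, 2.61 and 2.71 in controls and 3.25, 3.15, 3.1 and 3.06 in stressed mice, which is 1.42-fold higher with no overlap (SE 0.08, adjusted p = 0.00834). Pdk1, a kinase that restrains the entry of pyruvate into the mitochondrial cycle, read 1.13, 1.30, 1.26 and 1.26 in controls and 1.72, 1.56, 1.63 and 1.61 in stressed mice. It rose 1.31-fold (SE 0.07, adjusted p = 0.0158), and its groups lay clearly apart. Acadl, which starts the breakdown of long-chain fatty acids, read 4.63, 4.88, 4.93 and 4.91 in controls and 5.34, 5.16, 5.17 and 5.05 in stressed mice, a rise of 1.27-fold (adjusted p = 0.0454). Adss, an enzyme of AMP synthesis, rose 1.49-fold (adjusted p = 0.0126), and Nqo1, a quinone reductase of the antioxidant response, 1.26-fold (adjusted p = 0.0454).

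The other named rises were of varied function. Ahnak, a very large scaffold protein of the plasma membrane, read 5.30, 5.01, 5.14 and 5.08 in controls and 5.59, 5.43, 5.69 and 5.64 in stressed mice. Its rise of 1.37-fold had the smallest adjusted p of the named rises (0.00738), and 3 of its 4 kept probes were higher. Myom1, myomesin, which ties thick filaments together in the middle of the sarcomere, rose 1.19-fold (SE 0.06, adjusted p = 0.0406). H2-M3, a class Ib histocompatibility molecule that presents formylated peptides, read -0.57, -0.89, -0.51 and -0.57 in controls and -0.13, -0.28, 0.10 and -0.02 in stressed mice, a rise of 1.47-fold (adjusted p = 0.0264). Scyl3, a pseudokinase, rose 1.62-fold (adjusted p = 0.0123), the predicted gene Gm8775 1.57-fold (adjusted p = 0.0123), Tmed5, a cargo receptor of the early secretory pathway, 1.39-fold (adjusted p = 0.0264) and the transporter gene Abca17 1.43-fold (adjusted p = 0.0355).

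The 4 largest fitted rises of all called genes came from probes near background, so they are bounds on the scale used here or no fold at all. A830029E22Rik, known here from a cDNA, was well above background in 0 of 4 controls and in 3 of 4 stressed mice, where it read -3.00, -3.43, -2.60 and -6.13 against -6.39, -6.71, -6.31 and -6.66 in controls. It was at least 1.92-fold higher, with stressed mouse 4 just above the controls. Its probe entered the test only because of the stressed T10R42 mice, where it is high, so it had to differ and its p is not given as support; with normexp its change was 0.44 (adjusted p = 0.11). Klhl15, an adaptor of a ubiquitin ligase, was at least 1.87-fold higher (adjusted p = 0.0122), with 3 of 4 stressed mice and no control above background. With normexp the change of Klhl15 was 0.19 (adjusted p = 0.44). The predicted gene Gm7105 was at least 1.32-fold higher (adjusted p = 0.0489), but its arms overlapped, and its change was 0.12 with normexp. Gdf6, a growth factor of the bone morphogenetic family, was well above background in no mouse of either arm and is given no fold.

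Of the genes that fell, renin (Ren1), which starts the angiotensin cascade, read -1.33, -1.42, -1.45 and -1.29 in controls and -2.10, -1.60, -2.23 and -2.18 in stressed mice. The arms did not overlap, stressed mouse 2 lay nearest to the controls, and the level was 1.58-fold lower (log2 change -0.66, SE 0.13, adjusted p = 0.018). Siah3, of a family of ubiquitin ligases, read -0.35, -0.40, -0.61 and -0.35 in controls and -1.19, -1.11, -0.97 and -0.87 in stressed mice, 1.52-fold lower (adjusted p = 0.00834). Stressed and control mice did not overlap for Siah3.

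Of signalling and metabolic genes, Fzd5, a Wnt receptor, read -1.75, -3.18, -2.15 and -2.53 in controls and -3.49, -3.25, -3.57 and -3.05 in stressed mice, 1.91-fold lower (adjusted p = 0.0333) but with overlapping arms, since control mouse 2 was as low as the stressed mice. With normexp the change of Fzd5 was -0.40 (adjusted p = 0.10). Cyp27b1, the enzyme that activates vitamin D, was 1.87-fold lower (adjusted p = 0.0355), above background in 4 of 4 controls and 2 of 4 stressed mice, and changed by -0.29 with normexp. Caln1, a calcium-binding protein of neurons, was 2.08-fold lower (adjusted p = 0.0264), and Acoxl, related to peroxisomal acyl-CoA oxidases, 2.14-fold lower (adjusted p = 0.0301), with 2 of 4 stressed mice above background and a change of -0.28 with normexp. Rhov, a small GTPase, was above background in 2 of 4 controls and in no stressed mouse, which makes it at least 1.32-fold lower (adjusted p = 0.0173). By the same measure Slc22a3, a carrier that takes up catecholamines outside neurons, was at least 1.21-fold lower (adjusted p = 0.0264), and Cyp2d13 at least 1.19-fold lower (adjusted p = 0.0475). With normexp the changes of Rhov, Slc22a3 and Cyp2d13 were -0.25, -0.17 and -0.18.

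The named falls also held 3 genes of odorant receptors, known from the nose. The olfactory receptor genes Olfr47, Olfr843 and Olfr314 were 2.05-fold, 1.87-fold and 1.97-fold lower, Olfr314 with 2 of 4 stressed mice above background. The testis gene Tex22 was 2.28-fold lower, with 1 of 4 stressed mice above background and a change of -0.23 with normexp, and Adam5, a sperm surface gene, 1.96-fold lower with overlapping arms and a second probe that was higher (0.21). Nt5el had a fitted change of -1.67, which was -0.27 with normexp, with 3 controls and 1 stressed mouse above background, and 1700010D01Rik was 1.82-fold lower. Selp, the adhesion molecule P-selectin of platelets and endothelium, read -2.13, -1.93, -1.89 and -1.92 in controls and -2.27, -2.16, -2.58 and -2.67 in stressed mice, just past the threshold (adjusted p = 0.0498). Tyms, which makes the thymidine nucleotide for DNA synthesis, read -0.98, -1.01, -1.05 and -1.21 in controls and -1.41, -1.31, -1.60 and -1.56 in stressed mice, 1.33-fold lower with no overlap (adjusted p = 0.0264).

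**Figure D2:**
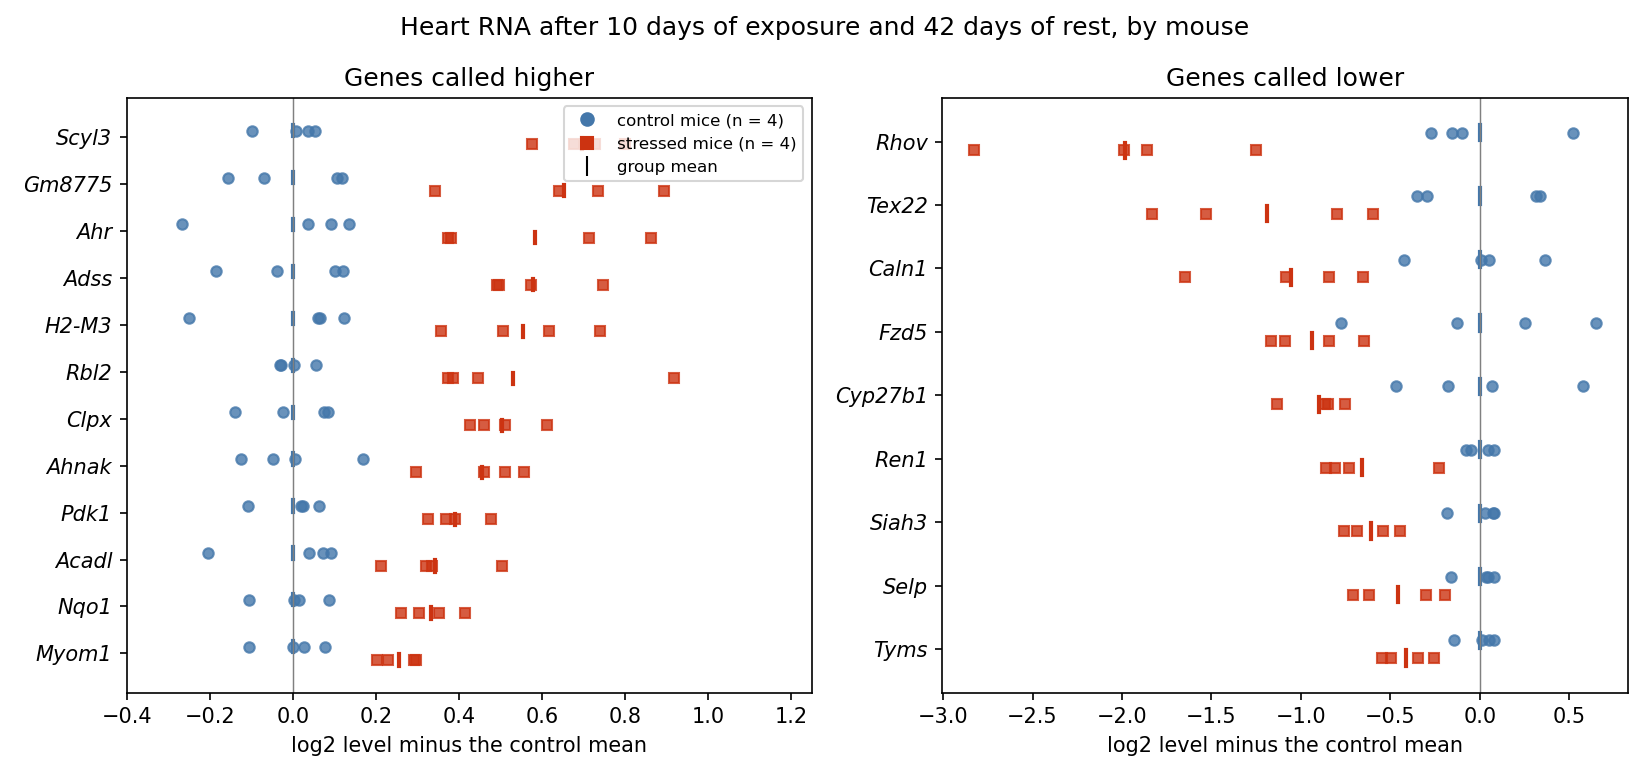
Level of called genes in each T10R42 mouse relative to the gene's control mean (x axis, log2), with controls as circles, stressed mice as squares and group means as ticks. Rises (left) lie mostly between 0.2 and 0.9 and falls (right) reach further, and among the genes drawn only Fzd5 has overlapping arms.

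The base composition of the 60-base probes moved with the stress effect. Genes that rose had a median probe content of 35% G and C, genes that fell 45%, and all tested genes 43.3%; only 7 of the 79 risers but 150 of the 168 fallers had a probe above 40%, as 61.9% of all tested genes did. LincRNAs made up 54 of the falls (32.1%) and 1 of the rises (1.27%), against 14.2% of tested genes. The probes of the lincRNA that rose, of the largest fitted rise and of the lincRNAs with the largest falls are shown because they display this contrast, with G and C in capitals, 5′ to 3′ as in the deposited files, and transcript positions on mm9.
A lincRNA at chr11:82593102-82594396, reverse strand, higher by 0.43 (adjusted p = 0.0395), 30% G and C: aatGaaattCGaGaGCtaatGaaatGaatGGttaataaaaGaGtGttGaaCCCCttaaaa
A830029E22Rik, the largest fitted rise, 35%: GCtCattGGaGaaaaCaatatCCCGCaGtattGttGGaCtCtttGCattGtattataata
A lincRNA at chr15:61870759-61938796, forward strand, changed by -1.16 (adjusted p = 0.0343), 45%: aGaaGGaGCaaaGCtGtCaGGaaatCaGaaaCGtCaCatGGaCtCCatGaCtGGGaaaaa
A lincRNA at chr13:21860993-21862345, forward strand, changed by -1.13 (adjusted p = 0.00834), 45%: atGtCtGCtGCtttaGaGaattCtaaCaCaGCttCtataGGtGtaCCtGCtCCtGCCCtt
A lincRNA at chr12:88154776-88184372, reverse strand, changed by -1.09 (adjusted p = 0.00069), 51.7%: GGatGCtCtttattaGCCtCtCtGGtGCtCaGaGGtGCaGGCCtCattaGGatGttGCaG

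Across all 27532 genes the same gradient was seen. The median change was 0.24 for probes of at most 30% G and C, 0.10 from 30% to 35%, -0.07 from 40% to 45%, -0.16 from 50% to 55% and -0.28 above 60%. Across genes, which are not independent, the change correlated with probe content at r = -0.31 in T10R42, -0.11 in T5R10, -0.21 in T5R1 and 0.13 in T10R1. The trend ran through single mice too: the deviation of each array correlated with probe content at 0.12 to 0.25 in the 4 controls and at -0.22 to -0.18 in stressed mice 1, 3 and 4, with stressed mouse 2 at 0.05. Within slide row 1 the r was -0.25 and within row 2 -0.27. When each array's median deviation within a class of probe content was subtracted, a step chosen after seeing the data, 33 genes were higher and 53 lower, and 75 of these 86 were among the original 247. Of the 40 named calls 20 passed with this step, among them Clpx, Ahnak, Pdk1, Nqo1, Adss, Scyl3, Siah3 and Tyms, while others kept most of their size without passing. Ahr was then at 0.48 (adjusted p = 0.13), Rbl2 at 0.43 (0.10), Ccnt2 at 0.51 (0.094), Acadl at 0.24 (0.16) and Ren1 at -0.51 (0.051). The part of array column in this gradient cannot be told apart from stress.

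**Figure D3:**
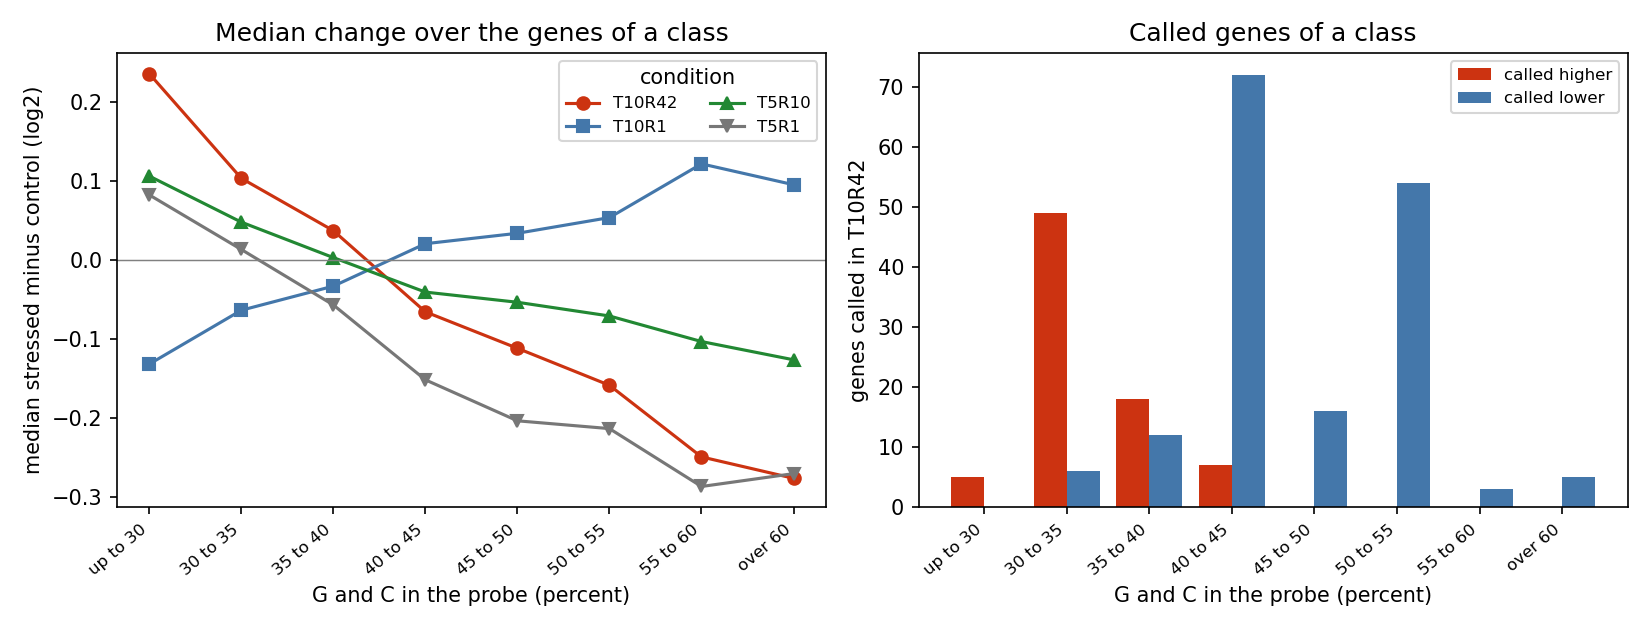
Left, median stressed-minus-control change (log2) of the genes in 8 classes of probe G and C content, for the 4 conditions; right, the number of genes called higher or lower in T10R42 in each class. The T10R42 median falls from 0.24 to -0.28 across the classes, T10R1 runs the opposite way, and the classes above 45% hold called falls only.

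Lists of genes chosen by function and cell type held few calls. Of 825 tested genes in 43 lists, 7 were called (4 higher and 3 lower, 0.897% of all tested genes being called): Acadl, Pdk1, Nqo1 and Myom1 rose, and Ren1, Tyms and Selp fell. Each was the only called member of its list, so 1 of 30 fatty acid oxidation genes, 1 of 24 glycolysis genes and 1 of 23 antioxidant genes were called. Oxidative phosphorylation (0 of 37, median 0.00) and mitochondrial biogenesis (0 of 18) held none.

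The collagen and extracellular matrix list, the scaffold that thickens in a fibrotic heart, had a median change of -0.01 over 28 genes. The median of all tested genes was -0.03. Of the 28, 13 were measured higher and 15 lower, where 44.5% and 55.5% of all tested genes were. Col3a1, a main fibrillar collagen, read 3.57, 3.11, 3.20 and 3.68 in controls and 3.32, 2.87, 3.44 and 3.42 in stressed mice, which overlapped throughout (adjusted p = 0.876). Fibroblast markers (median 0.03 over 18) and matrix remodelling genes (-0.12 over 21) held no call. P4ha3, a collagen prolyl hydroxylase, differed by -0.40 on the log2 scale without passing (adjusted p = 0.0621).

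Genes of cardiac strain held no call. Nppa, the atrial natriuretic peptide gene, read 9.62, 8.85, 9.28 and 9.19 in controls and 8.60, 9.44, 9.34 and 8.90 in stressed mice (adjusted p = 0.774). Nppb, its ventricular relative, read 6.26, 5.80, 5.85 and 6.24 against 5.48, 5.80, 6.00 and 6.18 (adjusted p = 0.845). Myh7, the slow myosin heavy chain, read 5.83, 4.39, 4.36 and 4.25 in controls and 5.50, 5.66, 4.81 and 4.75 in stressed mice. Here control mouse 1 was the highest of all 8 animals, and the arms overlapped (log2 change 0.47, adjusted p = 0.54). Without control mouse 1 the change was 0.84 (adjusted p = 0.24), and every stressed mouse lay above the other three controls; without stressed mouse 4 as well it was 0.99 (adjusted p = 0.25). The calcium pump gene Atp2a2 was 0.25 higher on the log2 scale without passing (adjusted p = 0.0968).

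Glucocorticoid targets, which follow circulating stress hormone, had a median change of 0.06 over 27 genes and no call. Fkbp5, the co-chaperone that the receptor induces, read 2.41, 2.06, 1.99 and 1.80 in controls and 2.69, 2.25, 2.17 and 2.28 in stressed mice (adjusted p = 0.562). Per1, a clock gene that glucocorticoids also induce, read 3.83, 3.30, 3.85 and 3.86 against 3.45, 3.76, 3.65 and 3.39 (adjusted p = 0.834). The circadian clock list had a median of 0.22 over 20 genes, 17 of them measured higher (44.5% of all tested genes were) and none called. The clock list mean, relative to controls, was 0.35, -0.11, -0.07 and -0.18 in control mice 1 to 4. In stressed mice 1 to 4 it was 0.36, 0.29, 0.25 and 0.01, so the arms overlapped. The clock repressor Cry2 read 3.32, 3.06, 3.15 and 2.72 in controls and 3.45, 3.43, 3.63 and 3.36 in stressed mice, apart in all 8 animals but short of the threshold (adjusted p = 0.0782). With the correction for probe content the change of Cry2 was 0.30 (adjusted p = 0.19 by limma), and it was called in 2 of 26 alternatives.

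Interferon response genes, which mark antiviral and immune signalling, had a median of 0.23 over 29 genes, with 26 measured higher against 44.5% of all tested genes. None passed. Gbp3, a guanylate-binding protein, came nearest: 1.57, 0.69, 1.47 and 1.13 in controls and 1.97, 1.68, 2.16 and 1.88 in stressed mice, 0.71 higher on average (adjusted p = 0.0605). With the correction for probe content the change of Gbp3 was 0.60 (adjusted p = 0.12 by limma), and it was called in 6 of 26 alternatives. The list mean, relative to controls, was 0.14, -0.29, 0.10 and 0.05 in control mice 1 to 4. In stressed mice 1 to 4 it was 0.25, -0.07, 0.44 and 0.28, so stressed mouse 2 lay within the range of the controls.

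Vessel wall genes held no call either. Smooth muscle and pericyte markers had a median of 0.13 over 16 genes, 13 of them measured higher (44.5% of all tested genes were). Of these the adhesion gene Mcam was 0.46 higher on the log2 scale (adjusted p = 0.0759) and the pericyte gene Rgs5 0.32 (adjusted p = 0.158). The arms of both did not overlap, which held with stressed mice higher for 4.15% of all tested genes. Pdgfrb, the growth factor receptor of pericytes and fibroblasts, was 0.42 higher (adjusted p = 0.0729), and the endothelial transcription factor gene Sox17 0.61 (adjusted p = 0.0773). Tgfbr3, a co-receptor of transforming growth factor beta, was 0.39 higher (adjusted p = 0.0568), and the ribosomal protein gene Rpl4 0.26 (adjusted p = 0.0568). The probes of these 6 genes hold from 35% to 36.7% G and C.

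Red cell genes had the lowest list median, -0.83 over 13 genes, all measured lower (55.5% of all tested genes were) and none called. The list mean relative to controls was 0.10, 0.35, -0.03 and -0.43 in control mice 1 to 4 and -0.34, -0.76, -0.77 and -1.24 in stressed mice, so control mouse 4 overlapped the stressed arm. Hbb-bt, an adult beta globin, read 9.49, 9.60, 9.41 and 8.62 in controls and 8.91, 8.36, 8.70 and 7.89 in stressed mice (adjusted p = 0.144). Bpgm, which makes the red cell regulator of oxygen release, read 3.28, 3.56, 2.91 and 2.56 against 2.78, 2.45, -0.34 and 1.96, its low mean resting on stressed mouse 3 (adjusted p = 0.14). The amount of blood left in each heart was not tested.

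**Figure D4:**
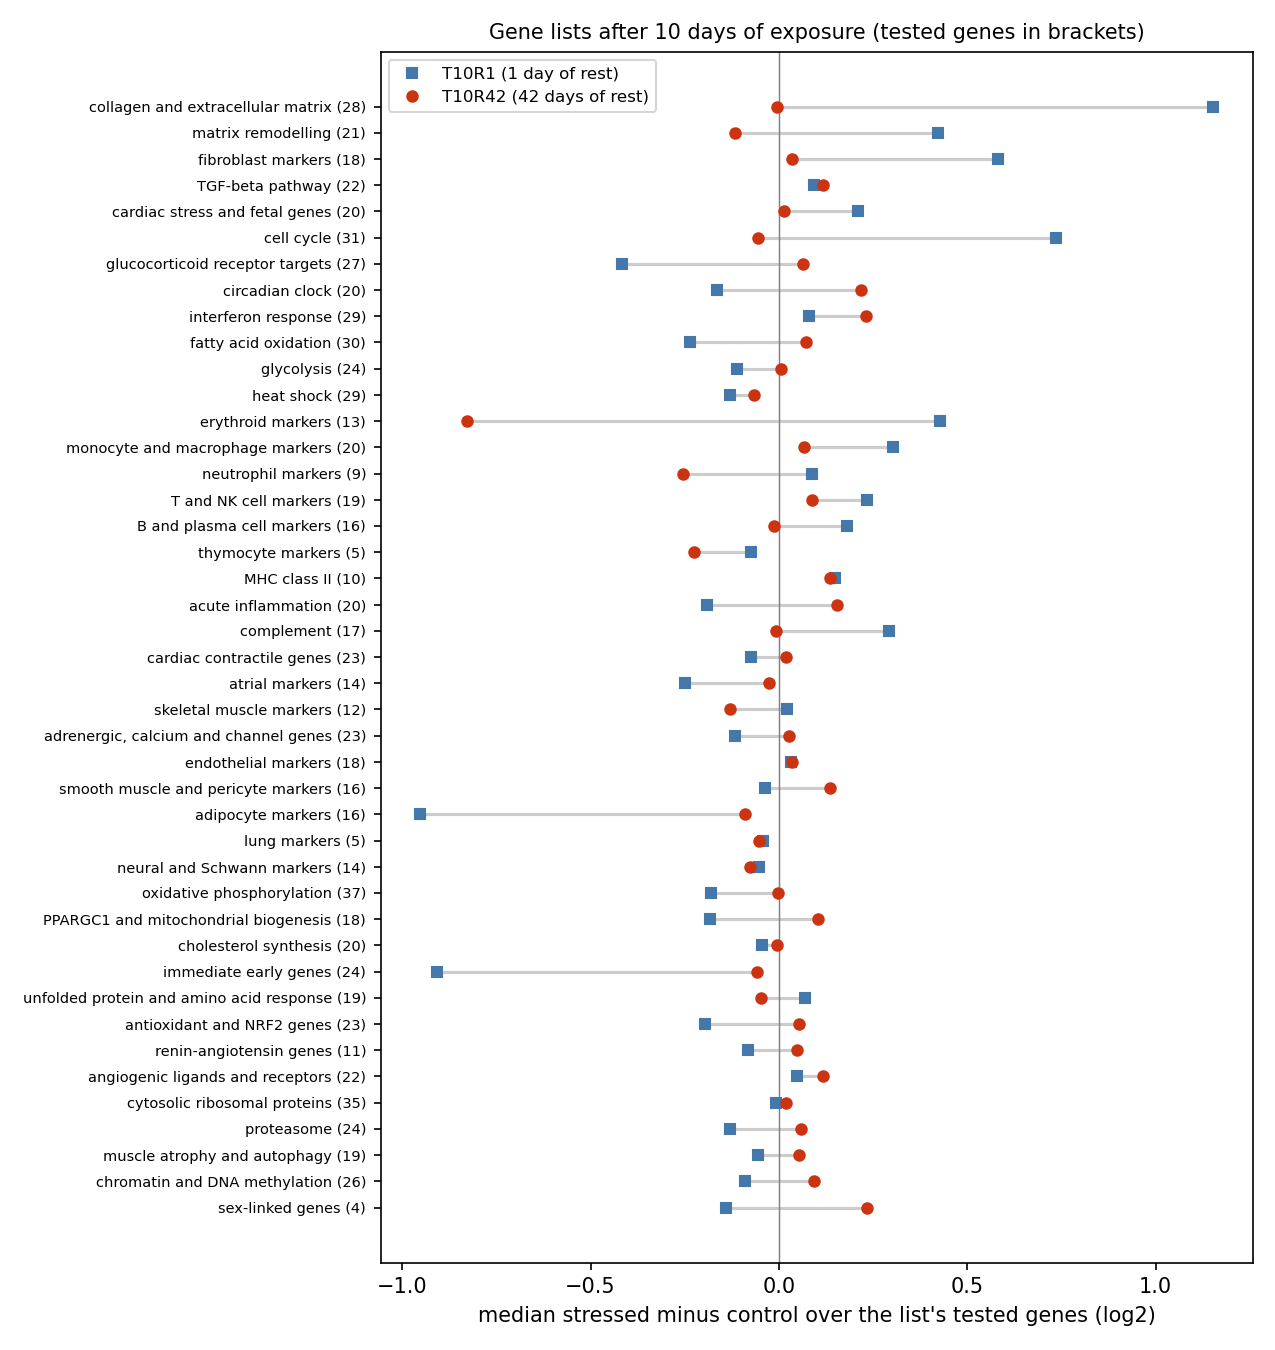
Median stressed-minus-control change (x axis, log2) over the tested genes of each of 43 lists, after 42 days of rest (circles) and after 1 day (squares), with the number of tested genes in brackets. For 42 days the medians lie near 0 with the erythroid list lowest at -0.83, whereas for 1 day the collagen list stands highest at 1.15.

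T10R1 holds mice of the same 10 days of exposure with 1 day of rest. The effect of stress was higher in T10R42 than in T10R1 for 520 genes (1.89% of those tested) and lower for 615 (2.23%). The lower ones included 14 of 28 collagen and matrix genes, 6 of 21 matrix remodelling genes, 6 of 18 fibroblast markers and 5 of 31 cell cycle genes. The median collagen change was 1.15 in T10R1, where 21 of 28 genes had risen, and -0.01 in T10R42. With the correction for probe content, 256 genes were higher and 253 lower, and the 4 lists held 11, 5, 4 and 2 lower genes in the same order. Without control mouse 1 and stressed mouse 4 of T10R42 they held 8, 3, 2 and 0, and over single left-out mice from 8 (without T10R1 stressed mouse 1) to 15, 4 to 7, 3 to 7 and 0 to 9. The cell cycle count was also 0 with quantile normalisation, the authors' table or the compared arrays alone, and became 4 lower and 2 higher with array medians.

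Cilp, a matrix protein of injured heart, read -0.12, -0.27, -0.14 and -0.58 in T10R1 controls and 3.06, 2.07, 1.41 and 3.11 in T10R1 stressed mice, 6.46-fold higher. In T10R42 it read -0.04, -0.57, -0.51 and -0.20 in controls and 0.09, -0.20, -0.26 and -0.44 in stressed mice, which overlapped. The effects differed by -2.56 on the log2 scale (SE 0.46, adjusted p = 0.0079).

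Col3a1 rose from a control range of 3.32 to 3.68 to 6.45, 5.27, 4.89 and 6.44 in T10R1 stressed mice, whereas its T10R42 arms overlapped (difference -2.41, adjusted p = 0.0093). Mfap4, of the elastic fibres, was 3.24-fold higher in T10R1 and measured 1.17-fold lower in T10R42 (difference -1.91, adjusted p = 0.0044). Col6a2, a collagen of the cell border, was 2.21-fold higher and then measured 1.19-fold lower (difference -1.40, adjusted p = 0.0044). Ecm1, a matrix glycoprotein, went from 1.58-fold higher to 1.22-fold lower without a call (difference -0.94, adjusted p = 0.0022). Cilp, Col3a1, Mfap4, Col6a2 and Ecm1 kept their call in 32 of 34 alternatives, the exceptions being the fits on a single slide row, where no gene was called. The proteoglycan gene Bgn had a T10R42 change of -0.32 (adjusted p = 0.238) and also differed (adjusted p = 0.0093).

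Beyond the matrix, Myh7 was 6.63-fold higher in T10R1 (controls 4.52 to 4.84, stressed 8.0, 7.46, 6.24 and 7.95) and not called in T10R42. The difference of -2.26 passed (adjusted p = 0.026), but not with the correction for probe content (-1.88, adjusted p = 0.066) or without the pair of T10R42 mice (-1.74, adjusted p = 0.084). Serpina3n, which encodes an inhibitor of proteases made in inflammation, was 2.61-fold higher in T10R1 and 1.13-fold in T10R42, and its difference of -1.21 (adjusted p = 0.048) lost its call in 25 of 34 alternatives, with values from -1.41 to -0.96.

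Among genes whose effect was higher after the long rest, Clpx was 1.28-fold lower in T10R1, at 2.95, 3.06, 2.85 and 2.66 in stressed mice against 3.26, 3.26, 3.07 and 3.37 in controls, and 1.42-fold higher in T10R42 (difference 0.86, adjusted p = 0.002). Gm8775 (difference 1.02), Tmed5 (0.88), Ahnak (0.67) and Anxa11, an annexin that binds membranes (0.61), also differed, with adjusted p from 0.0026 to 0.0047, and all had measured lower in T10R1. Clpx, Tmed5 and Anxa11 were called lower in T10R1, whereas Gm8775 and Ahnak were not. Anxa11 was not called in T10R42. The Ahnak difference rests on its brightest probe: with the median of its probes it was 0.04 (adjusted p = 0.92). Siah3 went the other way (difference -0.98, adjusted p = 0.0022). Arrays of T10R1 and T10R42 lay on separate slides read on different days, and T10R1 had the opposite gradient of probe content, so slide, scan day and rest cannot be told apart in these differences.

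**Figure D5:**
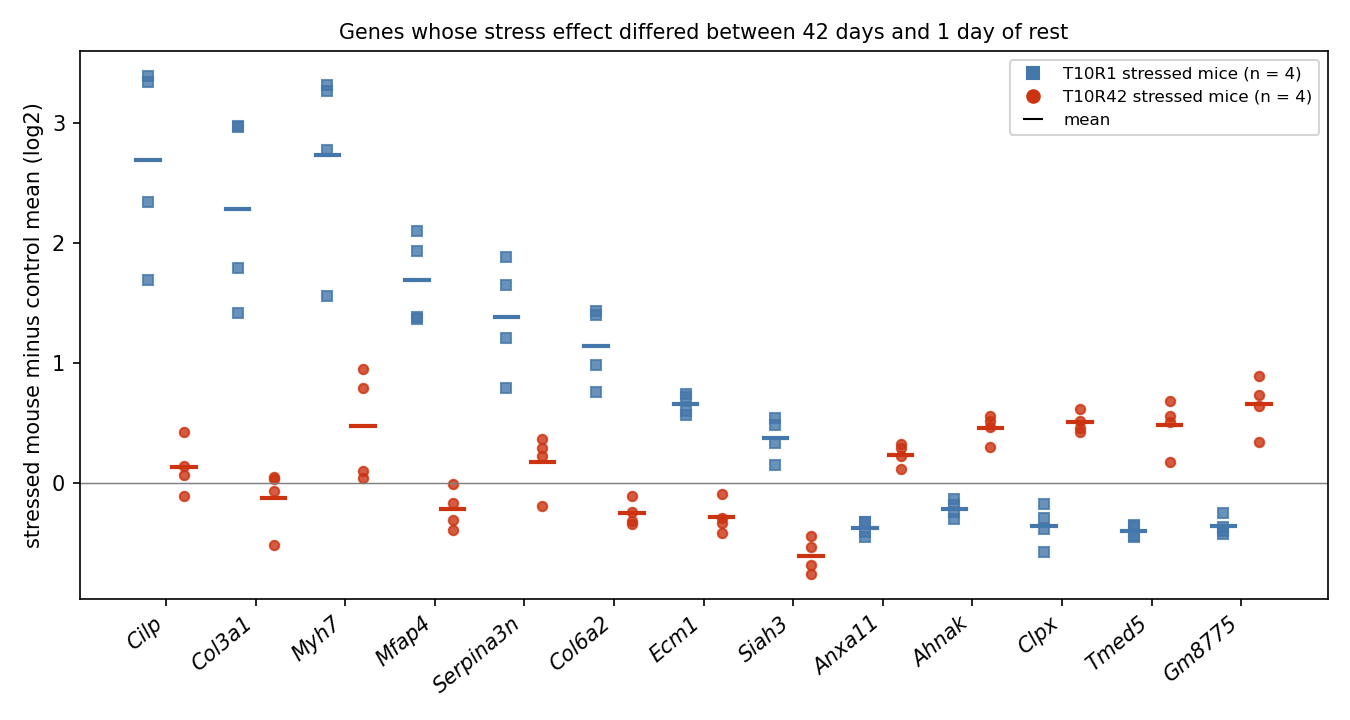
Stressed mice minus the mean of their own controls (y axis, log2) for 13 genes whose stress effect differed between T10R42 (circles) and T10R1 (squares), with means as bars. Cilp, Col3a1 and Myh7 stand above 1.4 in every T10R1 mouse and below 1 in every T10R42 mouse.

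The genes called after 1 day of rest were followed as a set. Of the 213 that rose in T10R1 (0.774% of tested genes), none was called in T10R42, near the 0.897% called of all tested genes. In T10R42, 100 were measured higher and 113 lower, where 44.5% and 55.5% of all genes were. Their median was -0.01 beside -0.03 for all genes. The difference between conditions was called for 119 of them, all lower in T10R42, against 2.23% of all genes. Of the 99 that fell in T10R1 (0.36%), 2 rose in T10R42 (0.287% of all genes did) and 78 were measured higher (44.5%). The difference was called for 66 of these 99, all higher in T10R42, against 1.89% of all genes. The T10R1 set was chosen on T10R1 mice alone, but the difference uses those mice again.

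The conditions with 5 days of exposure are set beside T10R42 as values. Against T5R10, which also had more than 1 day of rest, limma called no difference of stress effects in either direction, with 953 genes higher and 1128 lower at an unadjusted p below 0.05. Of the 79 genes that rose in T10R42, 75 were measured higher in T5R10 (46.1% of all genes were) and 70 in T5R1 (33.4%), but only 12 in T10R1 (50.0%). Of the 168 that fell, 147 were measured lower in T5R10 (53.9%), 163 in T5R1 (66.6%) and 36 in T10R1 (50.0%). In T5R10, where 0.0218% of tested genes were called higher and 0.0545% lower, 2 of the risers were called higher and none of the fallers lower. In T5R1, where 5.3% of tested genes were called higher and 8.43% lower, 27 of the risers were called higher (34.2% of the 79, 1.85% of its 1458) and 65 of the fallers lower (38.7% of the 168, 2.8% of its 2320). Across genes the T10R42 change correlated with that of T5R10 at 0.21, of T5R1 at 0.26 and of T10R1 at -0.20. These comparisons share no mice, but on every slide stressed mice held the same array columns. The changes of T10R42, T5R10 and T5R1 share the direction of the gradient of probe content, and T10R1 has the opposite one. T10R42, T5R10 and T5R1 were also read on the same scan day and T10R1 on another. Scan day and condition therefore cannot be told apart in this split, and the part of probe content in the likeness was not tested.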

How the data were processed

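RNA of 32 mouse hearts was hybridised to 1-colour Agilent arrays, 1 mouse per array. The deposited scanner files hold processed signal intensity per spot, background-subtracted by Agilent Feature Extraction 10.7.3.1, per the file headers, with probes placed on mm9. The authors' deposited value table holds log2 values; its columns correlated at 0.9995 or more with the log2 mean signal, and its scaling is not given in the sources used here. Labels put stressed and control mice in groups of 4, and whether mice of a group came from separate cohorts is not given, so p-values measure the spread between these mice.

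From the processed signals, log2 values less each array's 75th percentile were taken. Of 55681 probes, 38824 well above background on at least 3 of 4 arrays of a group were kept, 5470 outlier spots were left out, and the brightest probe stood for each of 27532 genes. Gene names came from accessions through a RefSeq table (GRCm38.p6) where these matched (26413 probes). limma 3.58.1 (lmFit, eBayes; R 4.3.3) fitted 8 group means over all 32 arrays, which share 1 spread per gene, with Benjamini-Hochberg adjustment over all genes, two-sided, called below 0.05. A gene above background in no mouse of 1 arm is given a bound in place of a fold. The bound sets the dim arm no lower than the lowest level above background on each array. It holds for the scale used here only. Normexp, run with an offset of 50 that itself shrinks dim changes, gave smaller changes for the genes with a bound above. Named genes are part of a set formed by rule: the 15 largest called rises and falls with official symbols, leading members of each list, 8 stress and matrix genes, and the 5 smallest p per direction of each difference. The lincRNAs, Bgn and genes named for their list were described after their values were seen. The limma fit of the T10R42 contrast was tested on simulated data, and the other steps were not. Some genes that the naming rule selects are not reported here. Members and lists were chosen with earlier results of these data known. The number of arrays limits precision. Alternatives covered background, scaling, filter, probe, spread, samples, blocks and each left-out mouse.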

Additional observations from a re-analysis of the deposited data

Results flagged for a closer look

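In 13 of 216 groups of 4 values 1 mouse lay far from the other three, where chance flags about 5%. In control mouse 2, Ccnt2 was -3.16 (others -3.42 to -3.38), H2-M3 -0.885 (others -0.574 to -0.512), 1700010D01Rik -1.36 (others -1.70 to -1.66) and Per1 3.30 (others 3.83 to 3.86). In control mouse 1, Myh7 was 5.83 (others 4.25 to 4.39) and Anxa11 3.67 (others 3.78 to 3.79). In stressed mouse 1, Rbl2 was 0.128 (others -0.417 to -0.344) and Sox17 1.04 (others 0.507 to 0.556).

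Of the list means relative to the control mean, control mouse 1 stood apart for lung markers (3.00), B and plasma cell markers (0.247) and complement genes (0.262). Control mouse 2 stood apart for thymocyte markers (-0.375) and glycolysis genes (0.0235).

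The stress effect differed between T10R42 and T10R1, by the limma test of the difference, for 520 genes higher and 615 lower in T10R42. Among them the difference on the log2 scale was 1.02 for Gm8775, 0.88 for Tmed5, 0.86 for Clpx, 0.67 for Ahnak and 0.61 for Anxa11. It was -2.56 for Cilp, -2.41 for Col3a1, -2.26 for Myh7, -1.91 for Mfap4, -1.40 for Col6a2, -1.21 for Serpina3n, -0.98 for Siah3 and -0.94 for Ecm1.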

How the results depend on the processing

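The 247 T10R42 calls became 124 with normexp, 375 with quantile normalisation, 431 with each array's median, 127 with the authors' table (63.8% lower), 119 without a filter, 1998 with array weights, 109 at 1.5-fold or more and 0 with the 8 arrays alone. Chosen after seeing the data were the correction for probe G and C content (86), the same with the replicate block (43), leaving out control mouse 1 and stressed mouse 4 together (11), slide row 1 alone (0, with 2667 genes at an unadjusted p below 0.05 by limma) and row 2 alone (2). Without control mouse 1, 2, 3 or 4 there were 131, 45, 44 and 86 calls, and without stressed mouse 1, 2, 3 or 4 there were 98, 1444, 34 and 53.

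The 1135 differences from T10R1 became 539 with quantile normalisation, 1710 with each array's median (which moved the median difference of all genes from -0.042 to 0.086), 670 with the authors' table, 451 without a filter, 3892 with array weights, 734 at 1.5-fold or more, 509 with the correction for probe content, 304 with that and the replicate block, 242 without the pair of mice and 0 in either slide row alone (3323 and 3215 at an unadjusted p below 0.05). With normexp, 33.5% of them were lower. Left-out mice gave 305 (without T10R42 stressed mouse 3) to 2093 (without T10R42 stressed mouse 2). Counts also moved by over 1.5 times without T10R42 control mouse 1 (544), 2 (486), 3 (691) or 4 (538), stressed mouse 1 (686) or 4 (685), T10R1 control mouse 2 (433) or 4 (459), or T10R1 stressed mouse 1 (338), 3 (703) or 4 (747). The count against T5R10 was 0 except without the pair (2), T10R42 stressed mouse 4 (3) or T5R10 stressed mouse 4 (21).

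The 7 called list genes became 1 with normexp, 13 with array medians, 2 with the authors' table, 3 without a filter, 11 with a stricter one, 4 with the median probe, 36 with array weights, 0 with 8 arrays, 1 at 1.5-fold, 3 with the correction for probe content, and 0 with that and the block, without the pair, or in either row; left-out mice gave 1 to 24. The median T10R42 change of genes that rose in T10R1 moved from -0.0134 to 0.0765 with array medians. Of 1027 alternatives for the 40 named calls, 512 kept the call, 515 lost it and 0 reversed, the direction being largely fixed by how the genes were chosen. Of 731 list medians, 646 moved by less than 1 SD over mice.

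Same-numbered mice deviated together at -0.11, 0.18, 0.02 and -0.09, and 1 of 4 stressed arrays correlated best with its own number, so the numbers do not pair the mice. The replicate block gave 249 calls in T10R42, of which 132 were among the 247, and 962 differences from T10R1. Beyond settings whose construction removes samples or genes, the cause of each move was not tested. Signal near background limits the 4 largest rises and the falls of Rhov, Slc22a3, Cyp2d13, Nt5el, Tex22, Acoxl, Cyp27b1 and Olfr314, whose changes shrank with normexp (Rhov to -0.25, Olfr314 to -0.26). Normexp also shrank the changes of Ccnt2 (to 0.19), Fzd5 (to -0.40), Ren1 (to -0.38) and Selp (to -0.24). Its offset of 50 shrinks the changes of dim probes by itself. Ahr (0.50) and Rbl2 (0.43) kept most of theirs.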
